A study of Homo sapiens with 6 samples.

Results

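Carbonic anhydrases and the transporters that move protons, bicarbonate, lactate and sulfate across membranes were followed in RKO, a cell line established from a human colorectal carcinoma, after exposure to EZA or to DMSO. The members were the protein-coding genes that GENCODE 44 names CA with a number (and at most a closing A or B), those whose symbols begin with SLC4A, SLC9A, SLC16A or SLC26A, and BSG. By this rule there were 60 members among the 58735 genes of the deposited table, namely 15 carbonic anhydrases, 11 SLC4A, 9 SLC9A, 14 SLC16A and 10 SLC26A genes and BSG. EZA-treated cells and DMSO-treated cells had 3 libraries each, which the study calls biological replicates. EZA is not spelled out in the labels, and neither its dose nor the exposure time is given in the sources used here. Nothing states that the replicates were separate cultures, so p-values measure only the spread between these samples, which may be technical.

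Carbonic anhydrases interconvert carbon dioxide and bicarbonate and release or take up a proton in doing so. Most SLC4A proteins exchange or co-transport bicarbonate, SLC9A proteins trade sodium or potassium for protons, several SLC16A proteins carry lactate together with a proton, and SLC26A proteins exchange anions such as chloride, bicarbonate, sulfate and oxalate. BSG (basigin) is the membrane chaperone that brings lactate transporters to the cell surface. In the normal colon CA1, CA4 and SLC26A3 belong to mature absorptive cells, and in many tumour cells CA9, CA12 and SLC16A3 are known to be induced at low oxygen through hypoxia-inducible factor.

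The promoters of 4 members whose counts differed between EZA and DMSO are shown because they let a reader see the DNA just upstream of these genes. They come from the RefSeq promoter table (GRCh38.p14), which held 41 of the 60 members and not CA11, SLC16A5, SLC16A13 or SLC26A11, and they were chosen after the values were seen. Each line holds the 120 bases before the annotated start, 5′ to 3′ along the gene. Capitals mark a match on either strand to the core of the hypoxia response element (ACGTG or GCGTG) or to the antioxidant response element (TGACNNNGC), which hypoxia-inducible factor and NRF2 are known to bind.
CA9: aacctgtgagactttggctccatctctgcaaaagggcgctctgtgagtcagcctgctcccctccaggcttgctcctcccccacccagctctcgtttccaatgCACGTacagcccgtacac
SLC26A1: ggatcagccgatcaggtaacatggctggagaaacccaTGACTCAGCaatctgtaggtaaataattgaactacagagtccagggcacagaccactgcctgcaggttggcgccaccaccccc
SLC4A3: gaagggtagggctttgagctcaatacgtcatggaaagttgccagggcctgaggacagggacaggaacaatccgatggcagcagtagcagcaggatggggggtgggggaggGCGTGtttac
SLC16A7: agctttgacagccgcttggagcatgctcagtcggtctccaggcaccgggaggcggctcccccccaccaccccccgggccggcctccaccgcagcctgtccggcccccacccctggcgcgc
The CA9 promoter lay at chr9:35673808-35673927 (plus strand), that of SLC26A1 at chr4:993405-993524 (minus strand), that of SLC4A3 at chr2:219630937-219631056 (plus strand) and that of SLC16A7 at chr12:59595909-59596028 (plus strand). The start used for SLC4A3 lies 3663 bases inside the GENCODE gene, and SLC16A7 has 2 starts in the table. CA9 held ACGTG read on the minus strand, SLC4A3 held GCGTG on its own strand, and SLC26A1 held an antioxidant element. In windows of 250 bases before to 50 bases after the start, the hypoxia core occurred in 23 of the 41 members (56.1%) and in 52.4% of the 27305 genes of the table. The antioxidant element occurred in 4 members (9.76%), BSG, CA14, SLC16A9 and SLC26A1, and in 16.1% of all genes. The amino acid response element (TGATGNAA) occurred in SLC9A9 alone (2.44%) and in 4.46% of all genes, and the E-box (CACGTG) in 6 members (14.6%) and in 8.77% of all genes. Every CACGTG also holds the hypoxia core. A match is a description of the letters and not a bound site.

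Libraries held 14070611 to 18840954 counts. Of the 60 members, 34 had enough counts to be tested, 8 had no count in any library, and the rest had 1 to 57 counts over all 6 libraries. EZA replicate 3 stood apart, with 0.204% of its counts in mitochondrially encoded genes, against 4.29% and 3.68% in the other EZA libraries and 4.45% to 5.02% in the DMSO libraries. CPM are counts scaled to the library's TMM-adjusted total. Of 14 markers of colon epithelium, the keratins KRT8 and KRT18, the adhesion protein EPCAM and the intestinal factor CDX2 were tested, and CDH1, CDX1, MUC2 and CDH17 had no count. The summed level of all 14 was 167 to 196 CPM in EZA and 163 to 183 CPM in DMSO. Markers of other cell types were near absent, with summed levels of at most 5.14 CPM in EZA and 3.83 CPM in DMSO for 9 fibroblast genes, at most 2.35 CPM in EZA and 1.60 CPM in DMSO for 9 leukocyte genes, and PTPRC, DCN, PECAM1 and HBB at 0.

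Of the 34 tested members, 6 were higher in EZA, 1 was lower and 27 did not pass. Those higher were CA11, SLC4A3, SLC16A5, SLC16A13, SLC26A1 and SLC26A11, and the one lower was SLC16A7. The test was edgeR's quasi-likelihood test, and a call meant a Benjamini-Hochberg adjusted p below 0.05 over all 13503 genes tested. The 7 calls were 20.6% of the tested members, close to the 17.7% called among all genes. Members higher made up 17.6%, where 9.89% of all genes were higher, and the member lower made up 2.94%, where 7.82% of all genes were lower. The study's own threshold asks for a log2 fold change of 1 or more in either direction and an unadjusted p below 0.05. It was passed by SLC16A7, SLC26A1 and SLC26A11, which makes 3 of 34 members, where 5.73% of all genes passed. The 3 EZA values lay wholly above or below the 3 DMSO values in 12 members (35.3%), a share below the 42.7% of all genes. Median log2 fold changes were 0.01 over the tested members and -0.01 over all genes, and 17 members had a positive and 17 a negative value.

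**Figure D1:**
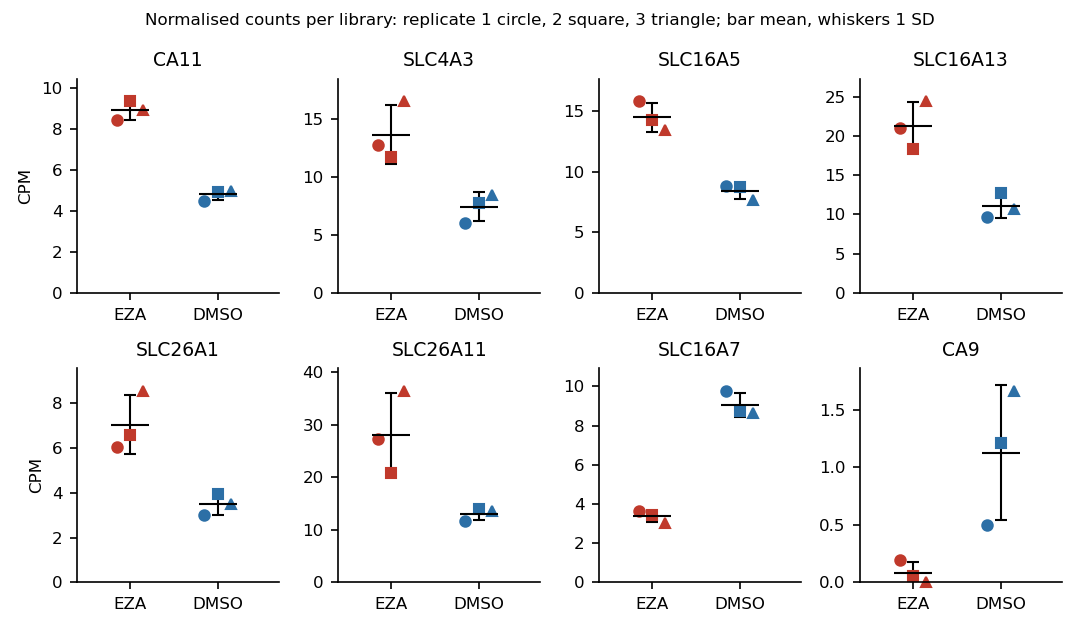
CPM of the 7 called members and of CA9 in each library, EZA left of DMSO, with the mean and 1 SD of each group (n = 3). In every panel the EZA points lie wholly above the DMSO points or wholly below them.

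Among the carbonic anhydrases 1 of 5 tested genes was called, where 17.7% of all genes were. This was CA11, which rose. CA9, under the filter on low counts, had 4 counts in EZA against 53 in DMSO. CA11 is a carbonic anhydrase-related protein that lacks enzyme activity. Its gene is on chr19:48637946-48646187 (minus strand). It had 8.44, 9.33 and 8.91 CPM in EZA, against 4.50, 4.92 and 4.99 CPM in DMSO. All 3 EZA libraries lay above the DMSO libraries and close together, and the log2 fold change was 0.89 ± 0.16 (SE; edgeR adjusted p = 0.0115). Leaving out DMSO replicate 1 or DMSO replicate 3 ended the call, with log2 fold changes of 0.84 and 0.92. Calls among all genes also fell in those fits, from 2392 to 220 and 254. For CA11 the adjusted p ran from 1.79e-04 to 0.108 over the 16 alternatives.

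CA9, the transmembrane enzyme with an outward-facing active site, had 3, 1 and 0 counts in EZA, against 8, 19 and 26 counts in DMSO. The groups did not overlap, and the total of 57 counts left the gene under the filter. Per library total, the EZA/DMSO ratio was 0.0718, with a 95% exact interval of 0.0189 to 0.195 that covers counting error only. With no filter, the log2 fold change in edgeR was -3.64 ± 0.72 (adjusted p = 2.28e-05 over 27291 genes, of which 12.2% were called). In some fits that left out 1 library the gene passed the filter, only through its DMSO counts, the higher group. The edgeR adjusted p was then 0.0286 without EZA replicate 1, 0.0539 without EZA replicate 2 and 4.67e-04 without EZA replicate 3. Without DMSO replicate 1 it was 0.0501. Because the filter favoured the higher group, these adjusted p-values are no separate support for the difference. ARHGEF39, which overlaps CA9 on the other strand, had 65, 96 and 57 counts in EZA and 108, 112 and 93 counts in DMSO, and the libraries do not mark strand.

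CA12, another transmembrane carbonic anhydrase, had 15.7, 10.8 and 5.16 CPM in EZA, against 17.96, 17.7 and 16.8 CPM in DMSO. Its EZA libraries all lay below DMSO but spread widely, EZA replicate 3 lowest, and the log2 fold change of -0.72 ± 0.32 did not pass (edgeR adjusted p = 0.149). It was -0.40 (adjusted p = 0.0360) without EZA replicate 3, and -1.12 (adjusted p = 0.0488) without EZA replicate 1. CA2, the fast cytosolic enzyme, had 19.4, 19.2 and 15.1 CPM in EZA, against 24.7, 23.2 and 21.2 CPM in DMSO. These groups did not overlap either, but the log2 fold change of -0.36 ± 0.15 did not pass (edgeR adjusted p = 0.127). CA13, also cytosolic, had 42.2, 42.6 and 33.1 CPM in EZA, against 40.3, 33.96 and 40.5 CPM in DMSO, with overlapping groups and a log2 fold change of 0.04 ± 0.15. With the trend of fold change with GC content and transcript length removed, CA13 had 0.29 (edgeR adjusted p = 0.154). With EZA replicate 3 also left out it had 0.39 (adjusted p = 4.57e-04). CA5B, a mitochondrial enzyme, averaged 6.01 ± 1.91 CPM in EZA and 4.75 ± 0.966 CPM in DMSO (SD, n = 3 each), and it shares exons with the pseudogene CA5BP1, so its counts are uncertain.

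Per length, on the deposited FPKM scale, CA2 led the family with 8.33 in EZA and 10.6 in DMSO, and CA13 followed with 7.04 in EZA and 6.78 in DMSO. The ratio of CA2 to CA13 FPKM was 1.18 ± 0.0120 in EZA and 1.58 ± 0.208 in DMSO (SD, n = 3 each), and its groups did not overlap. CA11 made up 19.2% of the summed carbonic anhydrase FPKM in EZA and 9.55% in DMSO. CA12 made up 6.20% in EZA and 9.87% in DMSO. The sum itself was 22.4 ± 3.04 FPKM in EZA and 23.8 ± 0.692 FPKM in DMSO, with overlapping groups, whereas the shares of CA2, CA9, CA11, CA12 and CA13 did not overlap between the groups. Shares of the same sum depend on each other, and by CPM 42.7% of all genes had groups that did not overlap. CA13 had overlapping groups by its own CPM, and the CA9 share rests on 57 counts. Of the other carbonic anhydrases under the filter, CA3, the muscle form, had 28 counts in EZA and 28 in DMSO, CA14, a transmembrane form, 19 in EZA and 19 in DMSO, and CA7 16 in EZA and 15 in DMSO. CA1, a cytosolic form of colonocytes, had 6 counts in EZA and 9 in DMSO. CA4, the membrane-anchored form of the colon surface, had 1 count in all, and CA5A, CA6, CA8 and CA10 had none.

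**Figure D2:**
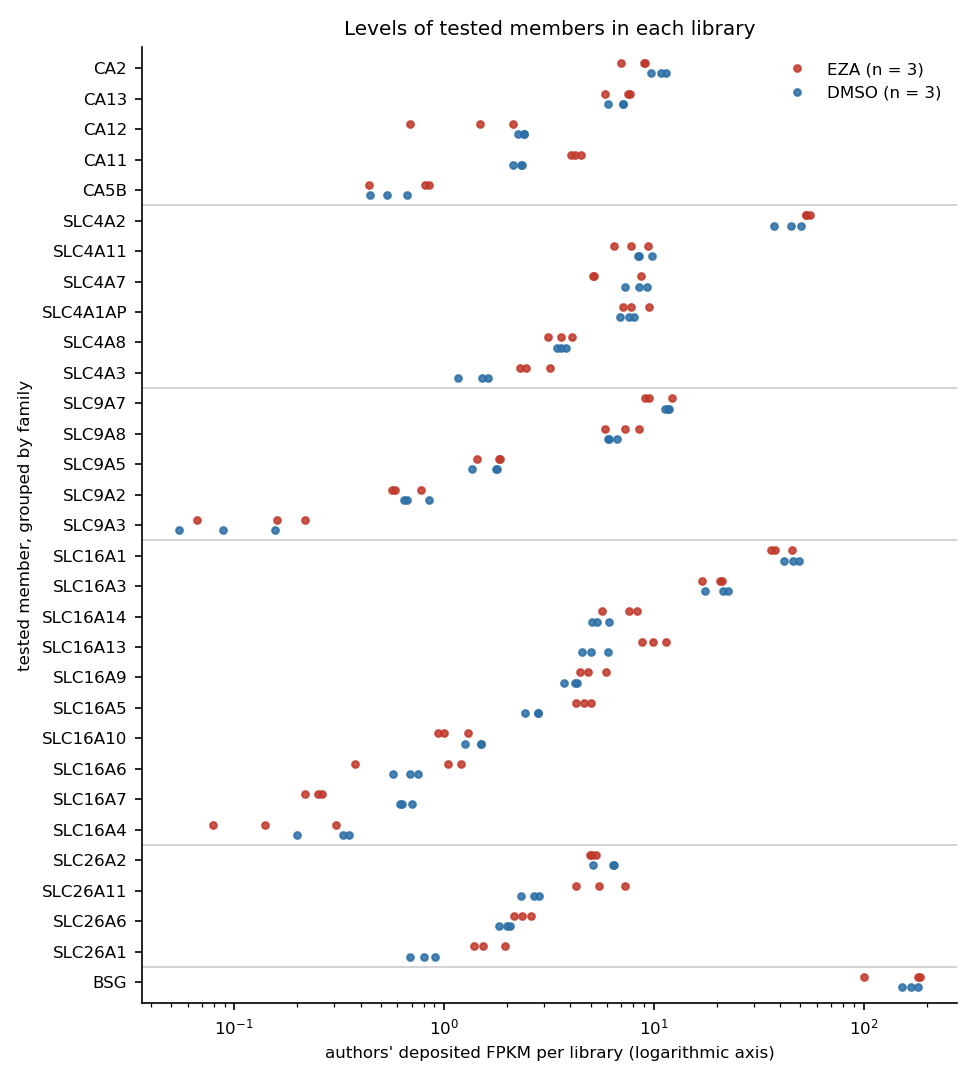
Deposited FPKM (logarithmic axis) of each tested member reported here, 1 point per library, EZA above DMSO in each row and rows grouped by family. BSG, SLC4A2, SLC16A1 and SLC16A3 stand highest, and SLC16A7 averages 0.243 FPKM in EZA and 0.649 FPKM in DMSO.

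Among the SLC4A genes 1 of 6 tested members was called, where 17.7% of all genes were. SLC4A3 (chr2:219627394-219641980, plus strand), a chloride/bicarbonate exchanger best known from heart and brain, had 12.8, 11.7 and 16.5 CPM in EZA, against 6.07, 7.79 and 8.50 CPM in DMSO. Every EZA library lay above every DMSO library, EZA replicate 3 highest, and the log2 fold change was 0.87 ± 0.20 (edgeR adjusted p = 0.0233). The call was lost without DMSO replicate 1, 2 or 3, with log2 fold changes of 0.74, 0.92 and 0.98. Calls among all genes also fell in those fits, from 2392 to 220, 787 and 254. Without EZA replicate 3 the log2 fold change of SLC4A3 was 0.72 (edgeR adjusted p = 8.53e-04).

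SLC4A2, the widely expressed exchanger of chloride for bicarbonate, was the most abundant of the family by FPKM, with 54.0 in EZA and 44.3 in DMSO. It had 426, 404 and 412 CPM in EZA, against 289, 387 and 353 CPM in DMSO, and the groups did not overlap. The log2 fold change of 0.27 ± 0.14 did not pass (edgeR adjusted p = 0.205). SLC4A7, an electroneutral sodium bicarbonate co-transporter, had 50.2, 49.9 and 84.9 CPM in EZA, against 91.3, 71.3 and 84.0 CPM in DMSO. EZA replicate 3 sat among the DMSO libraries while the other EZA libraries lay below them all. The log2 fold change was -0.42 ± 0.22 (edgeR adjusted p = 0.209), and without EZA replicate 3 it was -0.71 (adjusted p = 8.21e-06). With the trend of fold change with GC content and transcript length removed, it was -0.03 (adjusted p = 0.927), and -0.25 (adjusted p = 0.00841) with EZA replicate 3 also left out.

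SLC4A8, a sodium-driven chloride/bicarbonate exchanger, had 66.0, 56.0 and 74.7 CPM in EZA, against 65.9, 69.2 and 63.9 CPM in DMSO. SLC4A11, a transporter of protons and water rather than bicarbonate, had 41.3, 33.6 and 28.5 CPM in EZA, against 37.4, 43.1 and 37.7 CPM in DMSO. SLC4A1AP, an adaptor protein (kanadaptin) that is no transporter and enters by its symbol, had 41.3, 37.2 and 50.5 CPM in EZA, against 42.9, 36.5 and 40.8 CPM in DMSO. All 3 had overlapping groups, with log2 fold changes of -0.02, -0.19 and 0.10 in the order named. With the GC and length trend removed SLC4A11 had -0.46 (edgeR adjusted p = 0.0883), and -0.32 (adjusted p = 0.00552) with EZA replicate 3 also left out. On the other strand SLC4A8 overlaps GALNT6 (20134 counts) and SLC4A1AP overlaps SUPT7L (5564 counts). The 5 SLC4A genes under the filter had 1 to 34 counts. The highest, SLC4A5, had 27 counts in EZA and 7 in DMSO, an EZA/DMSO ratio of 3.67 with a 95% exact counting interval of 1.56 to 9.99. With no filter its edgeR adjusted p was 0.106, and MTHFD2, which overlaps it on the other strand, holds 29186 counts. SLC4A4, the electrogenic co-transporter of colon and kidney, had 1 count in EZA and 4 in DMSO.

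Of the 7 tested SLC9A sodium/proton exchangers 0 were called by edgeR, where 17.7% of all genes were, and 0 by DESeq2 and limma-voom. None had an unadjusted p below 0.05 in edgeR. Groups that did not overlap were found in 0 of the 7, and in 42.7% of all genes. With so few genes these counts set the family apart from all genes only loosely. SLC9A7, the exchanger of the trans-Golgi network, had 96.9, 90.3 and 125 CPM in EZA, against 119, 115 and 121 CPM in DMSO, a log2 fold change of -0.19 ± 0.15. SLC9A8, of the Golgi, had 59.7, 50.3 and 41.4 CPM in EZA, against 43.5, 47.0 and 43.1 CPM in DMSO, a log2 fold change of 0.18 ± 0.16. In SLC9A7 EZA replicate 3 lay above the DMSO libraries, while the other EZA libraries lay below them. Without it edgeR gave log2 fold changes of -0.34 for SLC9A7 (adjusted p = 0.0124) and 0.31 for SLC9A8 (adjusted p = 0.0372).

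SLC9A5, a mainly neuronal exchanger, averaged 9.33 ± 1.34 CPM in EZA and 9.04 ± 1.33 CPM in DMSO, and SLC9A2, an apical exchanger of the gut, 3.88 ± 0.741 CPM in EZA and 4.40 ± 0.670 CPM in DMSO (SD, n = 3 each). SLC9A3, the exchanger of the intestinal brush border, averaged 0.838 ± 0.423 CPM in EZA and 0.573 ± 0.295 CPM in DMSO, on 68 counts in all, and it overlaps EXOC3, which holds 5469 counts. SLC9A5 overlaps FHOD1 on the other strand, which holds 6581 counts. SLC9A9 had 3 counts and SLC9A4 none.

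**Figure D3:**
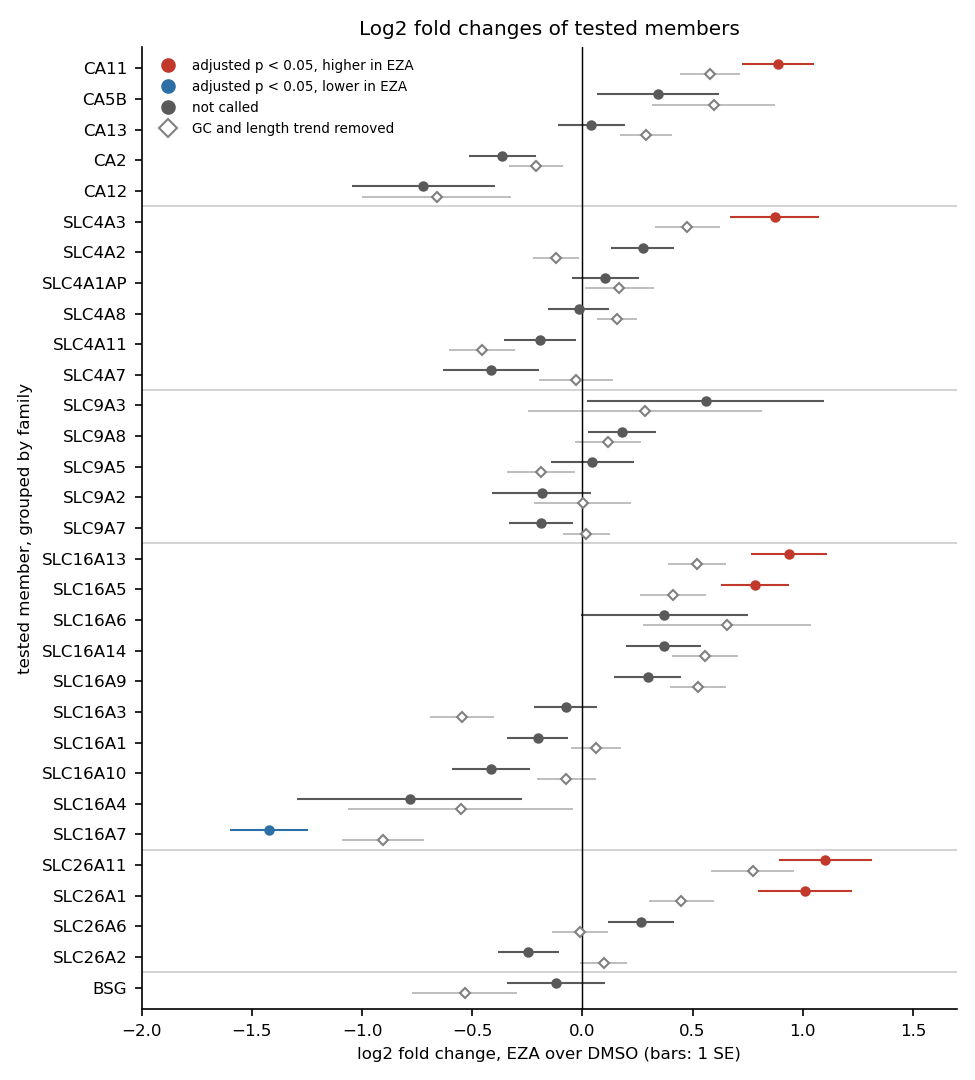
Log2 fold change, EZA over DMSO, of the tested members reported here, with bars of 1 SE (filled circles, called members in colour) and the value after removal of the GC and length trend (open diamonds), grouped by family. The called members range from -1.42 for SLC16A7 to 1.10 for SLC26A11.

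In the SLC16A family 3 of 11 tested members were called, 2 higher and 1 lower, where 17.7% of all genes were called. SLC16A7 (MCT2), a high-affinity carrier of lactate and pyruvate, lies on chr12:59596029-59789855 (plus strand). It had 3.62, 3.42 and 3.04 CPM in EZA, against 9.76, 8.75 and 8.63 CPM in DMSO. The groups were far apart compared with the spread within them, and the log2 fold change was -1.42 ± 0.18 (edgeR adjusted p = 0.00320), a fold of 0.373. It was called in each fit that left out 1 library, and its adjusted p ran from 7.02e-08 to 0.0501 over the 16 alternatives. The 120 bases printed above held neither the hypoxia core nor the antioxidant element.

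SLC16A13 (chr17:7036015-7040117, plus strand), a carrier of the same family, had 20.95, 18.3 and 24.4 CPM in EZA, against 9.70, 12.8 and 10.7 CPM in DMSO. Its groups were apart, with a log2 fold change of 0.94 ± 0.17 (adjusted p in edgeR = 0.0113). SLC16A5 (chr17:75087727-75106162, plus strand), also a monocarboxylate transporter-like protein, had 15.8, 14.2 and 13.4 CPM in EZA, against 8.82, 8.75 and 7.67 CPM in DMSO. Its groups were apart too, with a log2 fold change of 0.78 ± 0.15 (adjusted p in edgeR = 0.0138). Neither gene was called when DMSO replicate 1 or DMSO replicate 3 was left out. Log2 fold changes in those fits were 0.85 and 0.92 for SLC16A13, and 0.82 and 0.72 for SLC16A5. Over the alternatives the adjusted p reached 0.113 for SLC16A13 and 0.160 for SLC16A5. SLC16A11, the neighbour of SLC16A13 on chr17:7041621-7044092 (minus strand), had 9 counts in EZA and 12 in DMSO.

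The main lactate carriers by level were SLC16A1 and SLC16A3. SLC16A1 (MCT1) had 196, 201 and 246 CPM in EZA, against 267, 224 and 250 CPM in DMSO, a log2 fold change of -0.20 ± 0.14 (adjusted p in edgeR = 0.328). SLC16A3 (MCT4), the low-affinity exporter of glycolytic cells, had 189, 190 and 156 CPM in EZA, against 160, 207 and 196 CPM in DMSO, a log2 fold change of -0.08 ± 0.14 (adjusted p in edgeR = 0.743). The groups overlapped in both genes. With the GC and length trend removed, SLC16A3 had -0.55 (adjusted p in edgeR = 0.0514), and -0.39 (adjusted p = 1.74e-05) with EZA replicate 3 also left out. BSG, their chaperone, was the most abundant member by FPKM, with 156 in EZA and 168 in DMSO. It had 697, 703 and 391 CPM in EZA, against 588, 703 and 657 CPM in DMSO, and EZA replicate 3 alone lay below the rest. Its log2 fold change was -0.12 ± 0.22 (edgeR adjusted p = 0.735) and 0.11 without that library. With the trend removed it was -0.53 (adjusted p = 0.1804), and -0.28 (adjusted p = 6.93e-04) without that library as well.

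By FPKM, SLC16A1 exceeded SLC16A7 by a ratio of 166 ± 36.7 in EZA and 70.3 ± 4.39 in DMSO (SD, n = 3 each), and the ratio's groups did not overlap. The ratio of SLC16A1 to SLC16A3 was 2.08 ± 0.514 in EZA and 2.27 ± 0.504 in DMSO, and that of BSG to SLC16A1 was 4.03 ± 1.56 in EZA and 3.72 ± 0.659 in DMSO, both with overlapping groups. The summed FPKM of the family was 94.4 ± 0.891 in EZA and 93.3 ± 1.35 in DMSO. SLC16A13 made up 10.6% of that sum in EZA and 5.58% in DMSO, and SLC16A5 4.92% in EZA and 2.87% in DMSO.

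The other tested SLC16A genes did not pass. SLC16A9, a carnitine and creatine carrier, had 21.8, 26.1 and 20.006 CPM in EZA, against 19.4, 16.8 and 19.2 CPM in DMSO, with groups apart and a log2 fold change of 0.30 ± 0.15 (adjusted p in edgeR = 0.200). SLC16A14, with no settled substrate, had 38.1, 40.9 and 28.6 CPM in EZA, against 26.9, 25.5 and 31.0 CPM in DMSO, a log2 fold change of 0.37 ± 0.17 (adjusted p in edgeR = 0.156). The groups overlapped in SLC16A14. SLC16A10, a carrier of aromatic amino acids, averaged 12.2 ± 2.29 CPM in EZA and 16.3 ± 1.67 CPM in DMSO, and SLC16A6, which exports ketone bodies in zebrafish, averaged 3.58 ± 1.77 CPM in EZA and 2.79 ± 0.391 CPM in DMSO (SD, n = 3 each). ARSG, which overlaps SLC16A6 on the other strand, had 87, 99 and 62 counts in EZA, against 53, 56 and 54 counts in DMSO. SLC16A4, an orphan carrier, averaged 0.562 ± 0.382 CPM in EZA and 0.951 ± 0.274 CPM in DMSO. Under the filter were SLC16A8, a lactate carrier of the retinal pigment epithelium, with 12 counts in EZA and 8 in DMSO, SLC16A11, and SLC16A12, the last with no count.

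In the SLC26A family 2 of 4 tested members were called, both higher, where 17.7% of all genes were called. Both overlap another gene. SLC26A11 (chr17:80219699-80253500, plus strand), a sodium-independent sulfate transporter also found in lysosomes, had 27.2, 20.8 and 36.5 CPM in EZA, against 11.7, 14.045 and 13.6 CPM in DMSO. The groups were apart, EZA replicate 3 highest, and the log2 fold change was 1.10 ± 0.21 (edgeR adjusted p = 0.0132). Without EZA replicate 3 it was 0.87 (edgeR adjusted p = 7.45e-06). The call was lost without DMSO replicate 1, 2 or 3, with log2 fold changes of 1.03, 1.17 and 1.13. SGSH, a lysosomal sulfatase gene on the other strand, shares exonic sequence with SLC26A11. SGSH had 972, 784 and 1244 counts in EZA, against 478, 599 and 545 counts in DMSO, the same order of libraries in EZA as in SLC26A11. The libraries do not mark strand, so reads of the shared stretch cannot be told apart.

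SLC26A1 (chr4:979073-993440, minus strand), which carries sulfate and oxalate, had 6.03, 6.57 and 8.55 CPM in EZA, against 3.00, 3.96 and 3.52 CPM in DMSO. All EZA libraries lay above DMSO, with a log2 fold change of 1.01 ± 0.21 (adjusted p in edgeR = 0.0178). The call was lost without any one of the DMSO libraries, and the adjusted p ran from 0.00133 to 0.203 over the alternatives. IDUA, another lysosomal enzyme gene, overlaps it on the other strand and had 70, 58 and 53 counts in EZA, against 18, 25 and 27 counts in DMSO. The antioxidant element printed above for SLC26A1 lies within the 120 bases before its start.

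SLC26A2, the widely expressed sulfate transporter that is mutated in cartilage disorders, had 46.1, 43.6 and 43.5 CPM in EZA, against 56.4, 44.7 and 56.9 CPM in DMSO, a log2 fold change of -0.25 ± 0.14 (adjusted p in edgeR = 0.239). SLC26A6, an exchanger of chloride, bicarbonate and oxalate, averaged 15.3 ± 1.57 CPM in EZA and 12.7 ± 0.837 CPM in DMSO (SD, n = 3 each), with groups apart and a log2 fold change of 0.27 ± 0.15 (adjusted p in edgeR = 0.239). By FPKM the family summed to 14.6, 13.1 and 16.9 in EZA, against 11.4, 11.1 and 12.2 in DMSO. SLC26A11 made up 37.7% of that sum in EZA and 22.7% in DMSO, and SLC26A2 34.8% in EZA and 51.7% in DMSO. SLC26A11 exceeded SLC26A2 in EZA replicates 1 and 3 but not in EZA replicate 2 or in any DMSO library.

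Of the 6 SLC26A genes under the filter, SLC26A5 (prestin, the motor protein of outer hair cells) had 5 counts in EZA and 19 in DMSO, an EZA/DMSO ratio of 0.250 with a 95% exact counting interval of 0.0731 to 0.693. With no filter its edgeR adjusted p was 0.214, and it overlaps the proteasome gene PSMC2. SLC26A3, the chloride/bicarbonate exchanger of the colon surface, had 1 count in EZA and 1 in DMSO. SLC26A4 (pendrin) had 8 counts in EZA and 12 in DMSO, SLC26A8, a protein of sperm, had 8 in EZA and 11 in DMSO, and SLC26A7 and SLC26A9 had none.

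The GC content of the transcripts moved with the members' fold changes. The 6 members higher in EZA had transcripts of 59.1% to 67.5% GC, and SLC16A7 had 33.8%. Spearman's rho between GC content and log2 fold change was 0.56 over the 34 tested members and 0.51 over 13445 genes, which share the same libraries. Among transcripts of at least 55% GC, 6 of 14 members were higher (42.9%), where 22.1% of the 4054 such genes were higher. Median log2 fold changes there were 0.42 for the members and 0.32 for the genes. Among transcripts of at most 45% GC, 15 members had a median of -0.20 and the 5005 genes a median of -0.25. When the trend of fold change with GC content and transcript length was removed, rho was 0.06 over the members and -0.03 over all genes. The removal takes this relation out by design, so these values are no separate result.

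**Figure D4:**
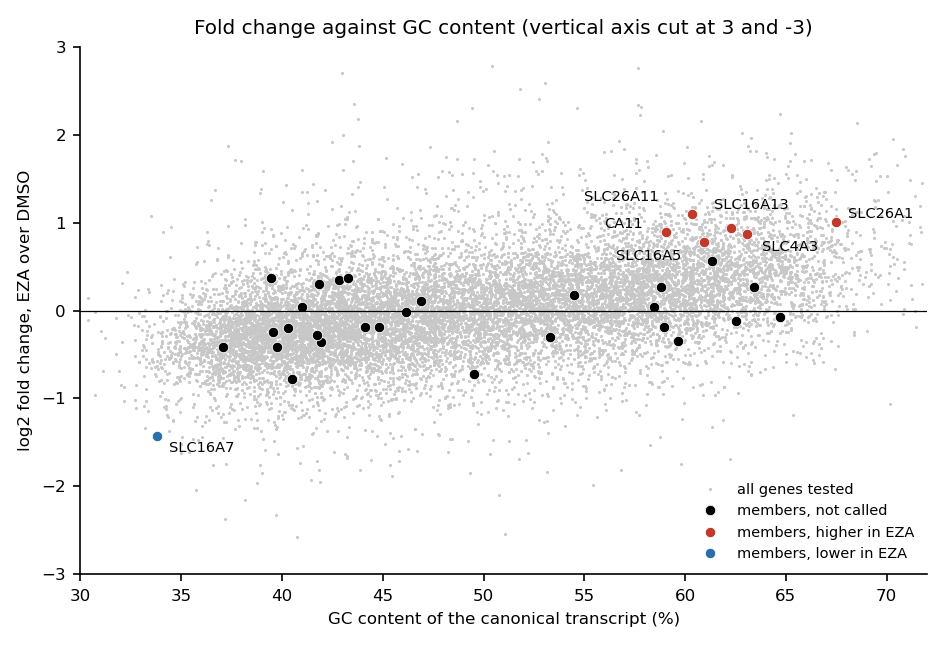
Log2 fold change, EZA over DMSO, against the GC content in percent of each gene's canonical transcript, for all tested genes (grey dots) and the tested members (red where higher, blue where lower, black where not called); 43 genes lie outside the axes. The members higher in EZA sit at 59.1% GC or above and SLC16A7 at 33.8%.

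With that trend removed, 5 members were called where 11.4% of all genes were. SLC16A7 (log2 fold change -0.91, edgeR adjusted p = 0.0248), CA11 (0.58, adjusted p = 0.0364), SLC26A11 (0.77, adjusted p = 0.0407) and SLC16A13 (0.52, adjusted p = 0.0468) remained called, and SLC16A9 was added (0.52, adjusted p = 0.0383). SLC4A3 had 0.48 (adjusted p = 0.0777), SLC26A1 0.45 (adjusted p = 0.0895) and SLC16A5 0.41 (adjusted p = 0.116), and these 3 calls were lost. What part of each difference goes with GC content was not tested.

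EZA replicate 3 set the spread of several uncalled members and stood high in SLC26A11, which was called. Relative to the mean of the other EZA libraries on the log2 CPM scale, it was lower by the largest steps in SLC16A6 (-1.56), CA12 (-1.36), CA5B (-0.90) and BSG (-0.84), and higher in SLC16A4 (1.51), SLC4A7 (0.76) and SLC26A11 (0.60). Without it 21 of 36 tested members were called, 12 higher and 9 lower, and so were 38.4% of all genes. All 7 called members remained called without it. Besides those already named, members that edgeR called without it but not with all libraries were SLC16A1 (log2 fold change -0.31, adjusted p = 0.0200), SLC4A2 (0.28, adjusted p = 0.0438), SLC16A14 (0.51, adjusted p = 0.00124), SLC16A10 (-0.58, adjusted p = 0.00269), CA5B (0.58, adjusted p = 0.0194), SLC16A6 (0.72, adjusted p = 0.0147), SLC16A9 (0.38, adjusted p = 0.0242) and SLC16A4 (-1.41, adjusted p = 0.0380). The SLC16A4 call rests on few counts, 4, 8 and 14 in EZA replicates 1 to 3, against 17, 10 and 18 in DMSO. Without EZA replicate 3 that gene passed the filter only through DMSO, the higher group. With EZA replicate 3 left out after removal of the GC and length trend, 19 of 36 members were called, where 38.7% of all genes were. In that fit edgeR did not call SLC16A1 (-0.057, adjusted p = 0.466), SLC4A2 (-0.040, adjusted p = 0.632), SLC16A10 (-0.15, adjusted p = 0.351), SLC9A7 (-0.082, adjusted p = 0.335) or SLC16A4 (-1.21, adjusted p = 0.0757). Among the 7 members called with all libraries, SLC26A1 was not called there (0.44, adjusted p = 0.0658).

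**Figure D5:**
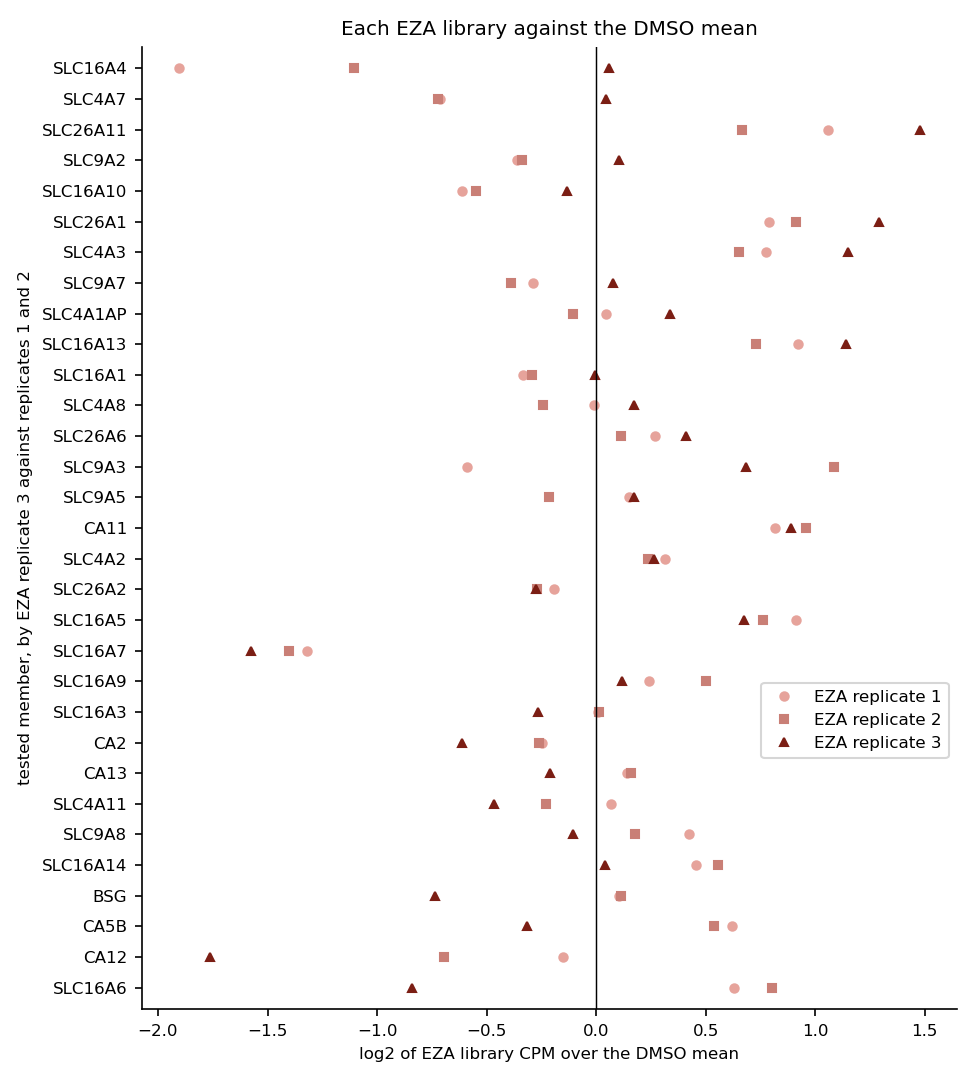
Log2 of the CPM of each EZA library over the DMSO mean, for the tested members reported here, ordered by how far EZA replicate 3 lies above or below the other EZA libraries. EZA replicate 3 lies away from EZA replicates 1 and 2 in SLC16A6, CA12, BSG, SLC16A4 and SLC4A7.

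Genes that work with the members were counted in lists. Among all genes tested, 9.89% were higher and 7.82% were lower, the shares to set beside each count. Of 18 tested proton pumps and channels 5 were higher and 0 lower, all subunits of the vacuolar proton pump, with a median log2 fold change of 0.27. ATP6V1B2 averaged 307 ± 24.1 CPM in EZA and 199 ± 8.44 CPM in DMSO (log2 fold change 0.63, edgeR adjusted p = 0.0132), and ATP6V1E2 11.5 ± 0.568 CPM in EZA and 6.47 ± 0.514 CPM in DMSO (0.83, adjusted p = 0.0125). Of 6 acid-sensing channels and receptors 2 were higher, the proton-gated channels ASIC1 (0.83, adjusted p = 0.00969) and PACC1 (0.66, adjusted p = 0.0210). Of 15 tested proteins that regulate or anchor the transporters 1 was lower, the kinase OXSR1 (-0.48, adjusted p = 0.0420). With the GC and length trend removed OXSR1 was not called (-0.34, adjusted p = 0.0983), while the scaffolds NHERF1 (-0.71, adjusted p = 0.0106) and NHERF2 (-0.42, adjusted p = 0.0293) were lower and the exchanger SLC9B2 was higher (0.51, adjusted p = 0.0278).

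Of 15 genes of lactate and pyruvate handling 1 was higher and 1 lower, where 9.89% of all genes were higher and 7.82% lower. LDHA, the lactate dehydrogenase subunit that favours lactate, fell to 567 ± 79.0 CPM in EZA, against 1034 ± 73.6 CPM in DMSO (log2 fold change -0.87, edgeR adjusted p = 0.0102), and LDHD, the D-lactate dehydrogenase, rose by 0.91 (adjusted p = 0.0358). With the trend removed LDHD was not called (0.47, adjusted p = 0.194). Of 32 genes of the hypoxia response 1 was higher and 4 were lower, with a median log2 fold change of -0.01. VEGFA, the endothelial growth factor, rose by 1.55 (adjusted p = 0.00107), while HIF1A, the oxygen-regulated factor itself (-0.87, adjusted p = 0.0113), LOX, a collagen crosslinker (-1.48, adjusted p = 0.0212), and EGLN1, a HIF prolyl hydroxylase (-0.51, adjusted p = 0.0285), were lower. EGLN1 just missed the threshold with the trend removed (-0.39, adjusted p = 0.0502). Set beside these, 18 of 20 amino acid response genes and 12 of 14 oxidative stress genes were higher, with median log2 fold changes of 2.18 and 1.20.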

How the data were processed

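Messenger RNA was enriched with oligo(dT) beads and sequenced from libraries that do not mark strand, per the labels' protocols. The submitters' processing notes name HISAT2, featureCounts, FastQC and DESeq2, with GRCh38 as the build; versions, options and annotation were not stated there. Every test used the counts per Ensembl gene that the authors deposited. Their FPKM, deposited in the same table, served for levels between genes.

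Groups came from the sample labels. Genes were kept by filterByExpr (minimum count 10, minimum total 15) and scaled by TMM. The two-sided robust quasi-likelihood test of edgeR 4.0.16 had no covariates, and p-values were adjusted by Benjamini and Hochberg's method over 13503 genes, which held 99.8% of all counts. The common biological coefficient of variation was 18.4%. GC content came from the canonical GENCODE 44 transcript, and its trend was removed with length by lowess (span 0.3). Alternatives were other scalings and filters, limma-voom 3.58.1, DESeq2 1.42.0, a block on the replicate number and fits that left out 1 library. Replicates differed by more than counting noise. The edgeR step was tested on simulated data. The members and lists were chosen with earlier results of these data known. Of the 34 tested members 3 are counted but not reported here by name; every other was named, with all libraries shown for called members and those averaging at least 20 CPM (and for CA12), and from each list at most 4 called genes with the smallest adjusted p. The genes overlapping or neighbouring a member, the members under the filter named beside the highest, and the markers were named in addition. Of the list genes 1 had no row. R 4.3.3 and Python 3.11.15 were used.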

Additional observations from a re-analysis of the deposited data

How the results depend on the processing

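DESeq2, limma-voom, DESeq2 size factors, library size alone, the totals implied by the FPKM values and the replicate block each called 7 members, the same 7 genes. With no filter on low counts 9 of 52 members (CA9 and CA12 being added) and 12.2% of all genes were called, and 6 passed the study's threshold. Leaving out 1 library gave 1 to 21 members called, 220 to 5289 genes called and 3 to 5 members past the study's threshold. Without DMSO replicate 1 only SLC16A7 was called, where 220 of 13742 genes were, against 2392 of 13503 with all libraries. Without DMSO replicate 3 again only SLC16A7 was called, where 254 of 13811 genes were. Without DMSO replicate 2 CA11, SLC16A5, SLC16A7 and SLC16A13 were called, where 787 of 13784 genes were. With the GC content and length trend removed 1538 genes were called and 0 members passed the study's threshold. The share of all genes past that threshold was counted only for the edgeR test used for the calls (5.73%). No such share therefore stands beside the member counts of the other fits. With the trend removed and the replicate block added, edgeR called 0 of 34 members (14 at an unadjusted p below 0.05) and 602 of all genes, and 0 members passed the study's threshold. With the trend removed and without EZA replicate 3, 19 members and 5329 genes were called. The cause was not tested.

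Of 544 values of single members under the alternatives 455 kept their direction and side of the threshold, 28 passed newly, 26 no longer passed and 35 changed sign. The changes of sign were in 12 members, 0 of them called by edgeR with all libraries, and 16 lay within 1 SE of the value with all libraries. With 1 library left out the log2 fold change ran from -0.25 to 0.11 in BSG (positive without EZA replicate 3), from -0.025 to 0.15 in CA13, from -0.18 to 0.013 in SLC16A3, from -0.026 to 0.20 in SLC4A1AP, from -0.12 to 0.085 in SLC4A8 and from -0.074 to 0.16 in SLC9A5. With library size alone CA13 had -0.0093 and SLC9A5 -0.0014. With the trend removed, alone and with the replicate block, signs changed in SLC16A1 (0.062 and 0.054), SLC4A8 (0.16 and 0.16), SLC9A7 (0.017 and 0.010), SLC26A2 (0.10 and 0.10), SLC26A6 (-0.0092 and -0.011), SLC4A2 (-0.12 and -0.12) and SLC9A5 (-0.19 and -0.19), and in SLC9A2 with the trend removed alone (0.00037). With the trend removed and without EZA replicate 3 they changed in SLC26A2 (0.15), SLC26A6 (-0.077), SLC4A2 (-0.040), SLC9A5 (-0.24), SLC4A8 (0.12) and SLC4A1AP (-0.011).

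Scaling by library size alone called 1059 genes higher and 1270 lower, against 1336 higher and 1056 lower with TMM. The block called 1970 genes and DESeq2 3089. Libraries with the same replicate number did not deviate together from their group means (correlations of 0.03, -0.17 and 0.03). EZA replicate 3 stood far from the other EZA libraries and weighs on every EZA deviation, so these correlations cannot settle whether the numbers pair the libraries. The 8 members with no count could not be tested, and among the others under the filter the fit without it called CA9 alone.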
